A study of Oryza sativa with 27 samples.

Results

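The loci described here are the 75 rice loci whose read counts were raised by the safener metcamifen at every sampled time, out of 46102 loci in the count table. They were chosen from the measured values. Counts were divided by the total of their library and multiplied by 1000000 (CPM). L, the log2 ratio of the metcamifen mean CPM to the DMSO mean CPM with 0.5 CPM added to each, had to be at least 1 at 30, 90 and 240 min. At each time the lowest metcamifen library also had to lie above the highest DMSO library, and the metcamifen mean had to reach 2 CPM. The fold condition left 82 loci, the condition on overlap 81 and the level condition 75. All 75 passed the filter on low counts that left 26465 loci for testing.

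The study dosed suspension cells of rice (Oryza sativa) with a safener and asked which transcripts responded relative to cells given the carrier solvent. All cultures were of cultivar Tsukinohikari and were 5 days old, and all received DMSO, either alone or as the carrier of the safener. The groups were DMSO, 5 µM metcamifen and 5 µM cyprosulfamide, each sampled at 30, 90 and 240 min. Polyadenylated RNA of 3 biological replicates per group was sequenced, which gave 27 libraries of 5516373 to 43747251 counts. A suspension culture has no roots, leaves or vessels and is a model of isolated cells only. A bulk library cannot separate a change in the number of responding cells from a change in RNA per cell.

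Safeners protect cereal crops from a herbicide without protecting the weeds. They are known to raise transcripts of the enzymes that detoxify foreign compounds: cytochrome P450s that oxidise them, glutathione transferases and UDP-glucosyltransferases that conjugate them, and ABC transporters that move the conjugates into the vacuole. The molecules of metcamifen and cyprosulfamide share a methoxybenzoyl sulfonamide core, to which metcamifen adds a methylurea group and cyprosulfamide a cyclopropyl amide. The count table does not pair its locus identifiers with gene names, and none of them matched the 39387 rows of the reference gene table, so the 75 loci are given by identifier, without role or sequence. Which of them encode detoxification enzymes was not analysed here. Where a locus has a close copy or overlaps another, its counts are uncertain, because the handling of such reads is not given in the sources used here.

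Libraries that stood apart from their group were looked for before the results. The SD of log2 CPM differences was 0.254 to 0.418 in pairs that held DMSO replicate 1, against 0.181 to 0.193 between DMSO replicates 2 and 3. For metcamifen replicate 1 it was 0.225 to 0.300 against 0.135 to 0.141, and for Cyprosulfamide_30min replicate 2 it was 0.371 to 0.394 against 0.162. Results are therefore also given without these 7 libraries, a choice made after seeing the data. With the 6 of them that are DMSO or metcamifen libraries left out, the same conditions chose 68 loci, of which 64 are among the 75.

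Under metcamifen the 75 loci took their largest share of the counts at 90 min and were back near the 30 min share at 240 min, still above DMSO. They took 0.687 ± 0.0239% of all counts at 30 min, 1.67 ± 0.0136% at 90 min and 0.677 ± 0.0182% at 240 min (SD, n = 3). In DMSO libraries they took 0.194 ± 0.0180%, 0.190 ± 0.0150% and 0.171 ± 0.0278%, and in cyprosulfamide libraries 0.191 ± 0.0174%, 0.190 ± 0.00425% and 0.181 ± 0.0080%. All 9 metcamifen libraries lay above all 18 others, while DMSO and cyprosulfamide overlapped at each time. The loci were chosen for the first of these gaps, so it is a description and was not tested. Without the 7 libraries that stand apart, metcamifen shares were 0.660 to 0.696%, 1.66% in both libraries at 90 min, and 0.666% in both at 240 min. The 5 loci with the most counts held between 27.2% and 45.6% of the set's counts, depending on the group.

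**Figure D1:**
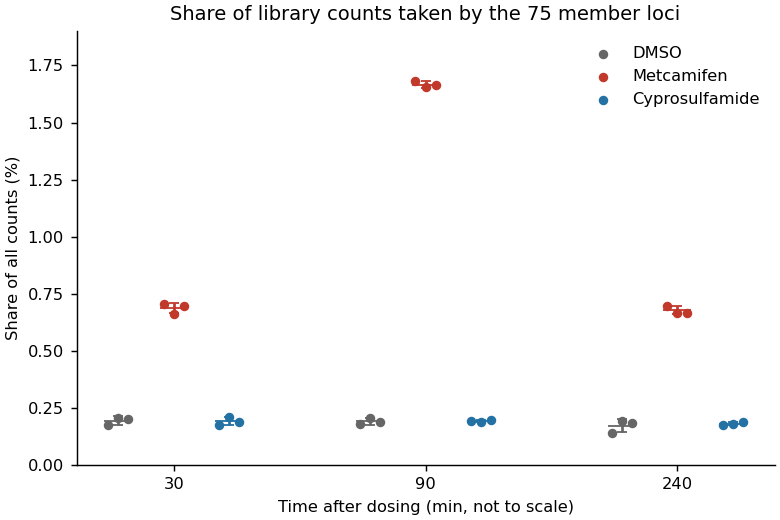
Share of all counts of a library (vertical axis, percent) taken by the 75 loci at each time (horizontal axis, minutes). Points are libraries, and bars are the mean ± SD of 3. Metcamifen means are 0.687, 1.67 and 0.677%, and all DMSO and cyprosulfamide means lie between 0.171 and 0.194%.

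The median L over the 75 loci was 1.94 at 30 min (range 1.00 to 5.64), 3.07 at 90 min (1.73 to 8.38) and 1.65 at 240 min (1.02 to 5.56). Over all tested loci the median L was -0.014, -0.064 and 0.0093, and 0.756%, 1.94% and 0.865% of them had an L of at least 1. Without the DMSO and metcamifen libraries that stand apart, the 75 loci had median values of 1.89, 3.02 and 1.43, and 69, 75 and 68 loci had an L of at least 1. At the 3 times, 16, 40 and 7 loci reached an L of at least 3. Among the 75 loci the median coefficient of variation between replicates was 10.3%, 7.33% and 13% under metcamifen at the 3 times. In DMSO it was 21.6%, 17.7% and 26.7%. The loci were chosen for higher levels under metcamifen. Their median was 48.1, 92.9 and 24 CPM there and 9.17, 5.93 and 5.29 CPM in DMSO. This coefficient depends on level, and spread at matched levels was not compared.

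**Figure D2:**
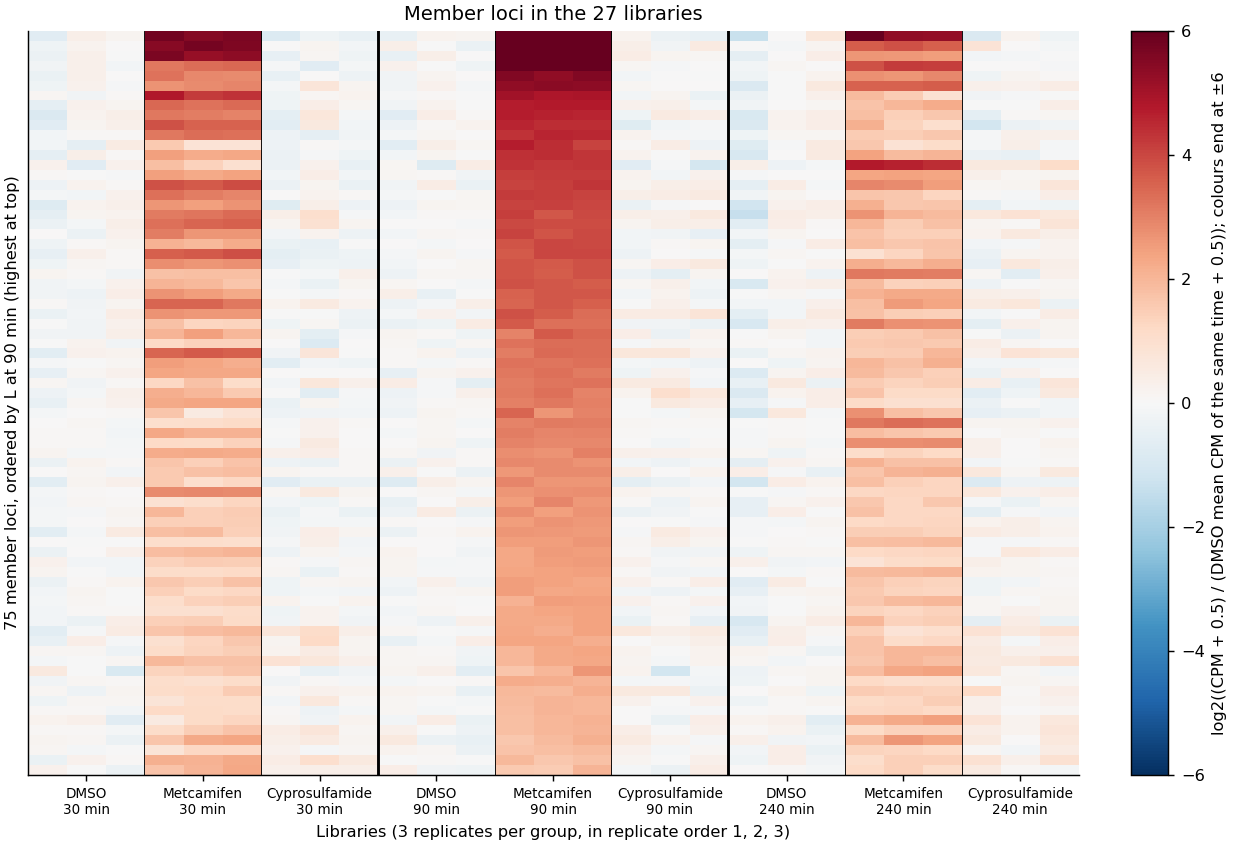
Each row is 1 of the 75 loci, ordered by L at 90 min, and each column 1 of the 27 libraries. Colour gives log2((CPM + 0.5)/(DMSO mean CPM of that time + 0.5)). The metcamifen columns are red throughout, most deeply at 90 min, where the median L is 3.07, and the cyprosulfamide columns stay close to the DMSO columns.

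Most of the loci had their highest L at 90 min, and they differed in height and in how L at 30 and at 240 min compared. For 66 loci the highest L was that of 90 min, for 4 that of 30 min and for 5 that of 240 min. It was lowest at 240 min for 44 loci and at 30 min for 30. From 30 to 90 min L increased at 70 loci (median change 1.05, range -0.38 to 3.32), and from 90 to 240 min it decreased at 70 (median change -1.35, range -4.33 to 0.45). The metcamifen levels themselves, which entered the choice, are given as a description. All 3 libraries at 90 min lay above all 3 at 30 min for 64 loci (12% of all tested loci) and below them for 3 (14.1%), and all 3 at 240 min lay below all 3 at 90 min for 71 loci (10.7%) and above them for 0 (19.9%). At 240 min L stood at a median of 56.5% of its value at 90 min (range 27.7 to 123%). Across the 75 loci, L at 30 and 90 min correlated at r = 0.81, L at 90 and 240 min at 0.66 and L at 30 and 240 min at 0.40. These describe the chosen loci, each time has its own libraries, and loci of one library share its depth.

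**Figure D3:**
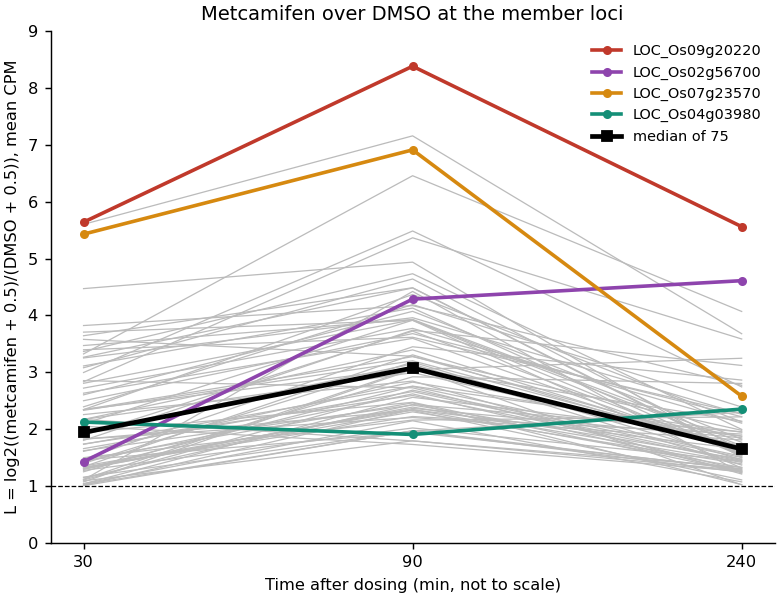
L (vertical axis, log2) at 30, 90 and 240 min (horizontal axis) for each of the 75 loci in grey, with the median in black and 4 loci in colour. The dashed line is the threshold of 1. The median goes from 1.94 to 3.07 to 1.65, LOC_Os07g23570 goes from 6.91 to 2.58 after 90 min, and LOC_Os02g56700 goes from 1.43 to 4.61.

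LOC_Os09g20220 had the highest L at all 3 times (5.64, 8.38 and 5.56). Its metcamifen libraries stood at 222, 181 and 200.3 CPM at 30 min, at 1130.4, 992 and 1008 CPM at 90 min and at 185, 115 and 111 CPM at 240 min. Its 9 DMSO libraries lay between 0.648 and 4.61 CPM and its 9 cyprosulfamide libraries between 1.09 and 3.10 CPM. The metcamifen libraries at 90 min were all above those of the other times, those of 30 and 240 min overlapped although each replicate number was lower at 240 min, and DMSO and cyprosulfamide were alike low.

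LOC_Os01g08440 had the lowest DMSO mean of the 75 loci, 0.282 CPM over 9 libraries, and the second highest L at 30 and 90 min. At 90 min it had 0.434, 0.238 and 0.0563 CPM in DMSO (13 counts in all) and 96.8, 104 and 116 CPM under metcamifen, an L of 7.16. At 240 min metcamifen libraries were down to 8.07, 9.53 and 7.86 CPM, an L of 3.68, one of the 2 largest decreases of L after 90 min. The other was LOC_Os07g23570, at 234, 175 and 187 CPM at 30 min, 296, 311 and 289.7 CPM at 90 min and 13.3, 12.9 and 12 CPM at 240 min under metcamifen. Its L of 5.43, 6.91 and 2.58 was thus high at both early times and lower afterwards, and no metcamifen library at 240 min overlapped the earlier times.

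LOC_Os02g56700 had the second highest L at 240 min, 4.61, after values of 1.43 and 4.29. Its metcamifen libraries went from 17.3, 12.7 and 9.32 CPM to 107, 98.8 and 102 CPM and then to 53.1, 48.9 and 42.6 CPM. In DMSO they stood at 5.55, 2.63 and 5.53 CPM, at 5.15, 2.62 and 6.59 CPM and at 2.04, 1.11 and 1.33 CPM. Its metcamifen level was therefore lower at 240 min than at 90 min, without overlap, while L was higher, the DMSO level being lower too. LOC_Os09g33680 is, like it, among the 5 loci whose own highest L came at 240 min: its L was 1.07, 3.05 and 3.25, its metcamifen means were 291 ± 12.3, 1201 ± 64.3 and 1034 ± 67.1 CPM and its DMSO means 138 ± 11.4, 145 ± 11.5 and 109 ± 5.12 CPM (SD, n = 3). Of the 2 loci whose L increased most after 90 min, LOC_Os04g03980 had an L of 2.12, 1.91 and 2.35 and LOC_Os09g02270 of 1.02, 1.97 and 2.29. Metcamifen libraries of LOC_Os04g03980 overlapped at all 3 times, between 8.79 and 15.8 CPM.

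The largest increases of L from 30 to 90 min were at LOC_Os05g45100, from 1.11 to 4.42, and LOC_Os03g57200, from 3.32 to 6.46. LOC_Os05g45100 had 3.16, 1.68 and 1.74 CPM under metcamifen at 30 min, 22.2, 18 and 14.1 CPM at 90 min and 2.96, 1.59 and 1.97 CPM at 240 min, so its first and last times overlapped. LOC_Os03g57200 had 11.8, 13.7 and 14.7 CPM, then 81.2, 91.4 and 106 CPM, then 14.3, 18.6 and 17.6 CPM. The 3 loci with metcamifen levels lower at 90 than at 30 min without overlap, named because they are few, were LOC_Os02g28220 (34.5 ± 2.23 and 20.9 ± 2.79 CPM), LOC_Os05g12450 (238 ± 4.69 and 203 ± 12.1 CPM) and LOC_Os05g34830 (28.3 ± 2.34 and 22.3 ± 2.09 CPM). The L of LOC_Os05g34830 still increased, from 3.82 to 4.17, as its DMSO mean went from 1.54 to 0.766 CPM.

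**Figure D4:**
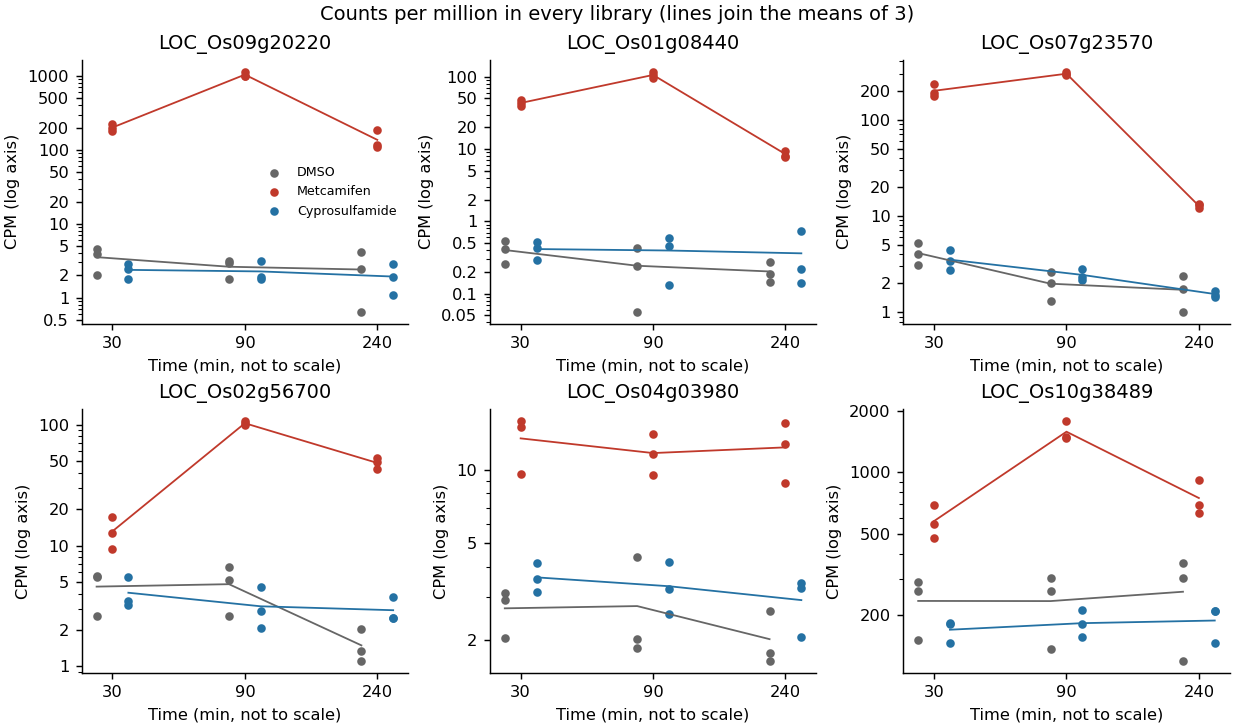
CPM on a log axis (vertical) by time in minutes (horizontal) for 6 of the 75 loci. Points are libraries and lines join the means of 3. Metcamifen libraries lie above all others of their time, and those of LOC_Os04g03980 stay between 8.79 and 15.8 CPM while those of LOC_Os07g23570 are at 12 to 13.3 CPM at 240 min.

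The 75 loci started from a wide range of levels in DMSO. Their mean over the 9 DMSO libraries had a median of 7.24 CPM (range 0.282 to 243), against 12.4 CPM over all tested loci. It was below 1 CPM at 11 loci, from 1 to 10 CPM at 30, from 10 to 100 CPM at 29 and above that at 5. None lacked counts in DMSO, and the lowest sum over 3 DMSO libraries was 12 counts, so no ratio rests on a group at 0. At loci this low in DMSO the size of L still depends on the 0.5 CPM added to each mean. The DMSO means of LOC_Os01g08440, 0.401, 0.243 and 0.203 CPM at the 3 times, were below that amount. CPM are not corrected for transcript length, so they rank loci by reads and not by transcripts. LOC_Os10g38489 took the most reads under metcamifen: its libraries had 691, 478 and 561 CPM at 30 min, 1778, 1495 and 1464 CPM at 90 min and 920.5, 693 and 630.1 CPM at 240 min. In DMSO it had 150.4, 263 and 289.7 CPM at 30 min, and DMSO replicate 1 was the lowest DMSO library at each time (136 CPM at 90 min and 119.6 CPM at 240 min, with the other two between 264 and 358 CPM). LOC_Os02g10880 took the fewest, at 2.10 ± 0.409, 4.13 ± 0.546 and 2.22 ± 0.160 CPM under metcamifen against 0.575 ± 0.188, 0.642 ± 0.264 and 0.506 ± 0.173 CPM in DMSO (SD, n = 3).

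The conditions were met at single times by more loci than by the 75. At 30, 90 and 240 min they held for 182, 462 and 196 loci, and for 549 at 1 or more times. A further 86 loci met them at 30 and 90 min, 55 at 90 and 240 min, 21 at 30 min alone, 246 at 90 min alone and 66 at 240 min alone, and 0 at 30 and 240 min without 90 min. The median L at 90 min was 3.07 for the 75 loci, 1.94 for the 86 and 1.61 for the 55, a difference that the choice at 3 times favours and that was not tested. The edge of the set is not sharp. Just inside lay LOC_Os02g28170 and LOC_Os03g19250, whose smallest L was 1.00 and 1.01, both at 30 min, and just outside LOC_Os10g38780 (0.99 at 240 min) and LOC_Os02g48570 (0.98 at 30 min).

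Locus numbers run along each chromosome, mostly in steps of 10, which allows neighbours to be counted. Within 100 numbers of another of the 75 lay 10 loci (13.3%), in 5 pairs on chromosomes 1, 2, 7 and 9, all named after their values were seen. The pairs are LOC_Os01g27200 with LOC_Os01g27210, LOC_Os01g43700 with LOC_Os01g43710, LOC_Os02g28170 with LOC_Os02g28220, LOC_Os07g07440 with LOC_Os07g07450, and LOC_Os09g34230 with LOC_Os09g34250. The share with such a neighbour was 4.65% among the 86 loci of 30 and 90 min, 10.9% among the 55 of 90 and 240 min, 0% among the 21 of 30 min alone, 20.7% among the 246 of 90 min alone and 7.58% among the 66 of 240 min alone. Such a share depends on how many loci a list holds, and the same share over all tested loci was not taken.

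Neighbours differed in level and sometimes in course. LOC_Os01g27210 had 274 ± 30.1, 581 ± 39.8 and 299 ± 40.7 CPM under metcamifen, and LOC_Os01g27200 beside it 5.01 ± 1.17, 8.45 ± 0.979 and 3.65 ± 0.931 CPM. L at 90 min was 5.37 at LOC_Os09g34250 and 3.18 at LOC_Os09g34230. LOC_Os02g28220 went from an L of 3.58 at 30 min to 3.28 and 1.69, while LOC_Os02g28170 went from 1.00 to 1.97 and 1.29. Whether reads were shared between neighbours was not tested.

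Other tested loci within 100 numbers of one of the 75 numbered 695, and an L of at least 1 was found in 16 of them at 30 min (2.30%), 31 at 90 min (4.46%) and 9 at 240 min (1.29%). Among the 25607 farther away the shares were 0.426%, 1.59% and 0.555%. Chromosome 1 held 18 of the 75 (24%, against 13.6% of tested loci) and chromosome 10 held 10 (13.3%, against 5.36%), while chromosomes 6, 8, 11 and 12 held 2 each. These shares were not tested.

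Metcamifen and cyprosulfamide were compared at the same dose and times. All 3 metcamifen libraries lay above all 3 cyprosulfamide libraries for 74, 75 and 74 of the 75 loci at 30, 90 and 240 min, against 4.23%, 10.2% and 9.51% of tested loci. The 2 exceptions were LOC_Os01g10210 at 30 min (1.92, 2.56 and 3.28 CPM under metcamifen, and 0.884, 2.33 and 0.879 CPM under cyprosulfamide) and LOC_Os01g54890 at 240 min (30.0, 19.8 and 22.2 CPM, and 19.9, 16.6 and 20.1 CPM). The median log2 ratio of metcamifen to cyprosulfamide CPM was 1.80, 2.98 and 1.65, and it was 1.83, 2.92 and 1.55 without the 7 libraries that stand apart. The 75 loci were chosen for high metcamifen levels, so the difference between the compounds is a description and carries no test.

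Cyprosulfamide against DMSO could be tested, in a fit to all 27 libraries with edgeR's quasi-likelihood test and p-values adjusted over all 26465 loci (Benjamini-Hochberg, two-sided, called below 0.05). This comparison shares its DMSO libraries with the choice of the loci. Low DMSO values favoured the choice, which favours changes above 0 with cyprosulfamide. The medians, directions and calls of the 75 below are therefore not independent of the choice. It called 0 of the 75 at 30, 90 and 240 min, and 0.00378%, 0% and 0% of all loci. DESeq2 also called 0 of the 75, and 0.151%, 0% and 0.0189% of all loci. With so few calls over all loci, 0 of the 75 does not set these loci apart. The smallest adjusted p of the 75 was 0.180, 1.00 and 0.677. Their median log2 change was -0.00088, 0.08 and 0.15, and over all loci -0.017, -0.0045 and -0.0027. Without the 7 libraries that stand apart the median of the 75 was -0.19, 0.08 and 0.066. An unadjusted p under 0.05 was found for 12 of the 75 at 30 min, 3 at 90 min and 10 at 240 min. Of these, 9, 3 and 10 were higher. Over all loci the shares in either direction were 9.63%, 3.09% and 6.31%, and those for higher alone were not taken. All 3 cyprosulfamide libraries lay above all 3 DMSO libraries for 8, 9 and 13 of the 75 (6.11%, 4.47% and 7.46% of all loci), and below them for 4, 0 and 0 (3.57%, 3.68% and 2.63%). For 54, 56 and 49 of the 75 loci the whole 95% interval was inside 2-fold in both directions (84.8%, 85.0% and 81.2% of all loci), and for the others it reached past 2-fold.

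None of the largest cyprosulfamide changes passed the test. At 30 min the highest was LOC_Os01g10210, at 0.411, 1.14 and 0.699 CPM in DMSO against the cyprosulfamide values given above, with a log2 change of 0.97 (SE 0.44, adjusted p = 0.479, edgeR) beside an L of 1.31 under metcamifen. It was -0.073 without the 7 libraries, and Cyprosulfamide_30min replicate 2 was its 1 high library. LOC_Os01g54890 had 17.9, 23 and 13.7 CPM with cyprosulfamide and 6.63, 9.93 and 14.8 CPM in DMSO, a log2 change of 0.81 (SE 0.25, adjusted p = 0.302, edgeR). These libraries overlapped, and metcamifen stood at 33.9, 39.7 and 41.2 CPM. At 240 min it had 0.75 with cyprosulfamide (adjusted p = 0.747) beside an L of 1.11, and LOC_Os02g10880 had 0.86 (adjusted p = 0.788) beside an L of 1.44. At 240 min LOC_Os02g56700 had 2.54, 2.49 and 3.72 CPM with cyprosulfamide against its DMSO values above, a log2 change of 0.97 (95% interval 0.09 to 1.86, adjusted p = 0.783, edgeR). At 90 min the highest was LOC_Os01g27200, at 1.05 (95% interval -0.06 to 2.15, adjusted p = 1.00), with 0.662, 1.52 and 1.09 CPM against 0.326, 0.477 and 0.732 CPM. The lowest were -0.52 for LOC_Os10g38150 at 30 min, -0.59 for LOC_Os02g56700 at 90 min and -0.53 for LOC_Os10g36980 at 240 min, with adjusted p = 0.498, 1.00 and 0.868. A difference between the cyprosulfamide effects at 240 and 30 min was called for 0 of the 75 and 0% of all loci, by edgeR and by DESeq2. At an unadjusted p under 0.05 (edgeR) it was found for 4 of the 75 and 3.08% of all loci.

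These counts depended on the libraries that stand apart. The 7 include DMSO replicate 1 but not cyprosulfamide replicate 1, although these deviated together from their group means. Their correlations were 0.53, 0.59 and 0.50 at the 3 times, against 0.044 to 0.13 for replicates 2 and 3. Leaving out 1 side only can itself shift the changes and calls below, and this was not tested. Without the 7, cyprosulfamide against DMSO called 7 of the 75 at 30 min (all lower), 2 at 90 min (both lower) and 10 at 240 min (5 higher, 5 lower), against 3.5% of all loci lower at 30 min, 1.56% lower at 90 min, and 2.14% higher and 6.09% lower at 240 min. LOC_Os10g38489, singled out after its values were seen, was the locus called at all 3 times, with log2 changes of -0.77, -0.65 and -0.85 (adjusted p = 0.00739, 0.0204 and 0.000761, edgeR). It had 147, 180.3 and 182 CPM with cyprosulfamide at 30 min, all below DMSO replicates 2 and 3 and on either side of DMSO replicate 1. LOC_Os09g20220, highest under metcamifen, was lower with cyprosulfamide at 30 min by a log2 change of -1.03 (adjusted p = 0.0192). The log2 changes called higher at 240 min lay between 0.33 and 0.88.

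Levels over time were also compared without metcamifen. In cyprosulfamide cultures, whose libraries the choice did not use, 6 of the 75 loci fell from 30 to 240 min and 1 rose (8% lower, where 1.25% of all loci were called lower, 0.786% higher and 2.03% in all). In DMSO cultures the same fit called 11 lower and 0 higher (14.7% of the 75 lower, where 1.21% of all loci were called lower and 0.68% higher). The median log2 change was -0.31 in DMSO and -0.20 with cyprosulfamide, against 0.0042 and 0.0061 over all loci. It was negative in both for 48 loci and positive in both for 14. The DMSO libraries entered the choice of the 75 through L, so their changes over time are descriptions. Counts of DMSO calls, and lists that use them, rest on an adjusted p under 0.05 in the same fit. They are not independent of the choice and support nothing.

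The lists of loci called lower share 5, which is 45.5% of the DMSO list and 83.3% of the cyprosulfamide list. Named because they are few, these are LOC_Os03g55240, LOC_Os04g37490, LOC_Os07g23570, LOC_Os07g44140 and LOC_Os10g42299. LOC_Os07g44140 changed most. It had 10.7, 10.2 and 13.9 CPM in DMSO at 30 min and 3.10, 4.12 and 3.66 CPM at 240 min, a log2 change of -1.68 (SE 0.15). With cyprosulfamide it went from 11.9, 13.7 and 12.3 CPM to 3.81, 3.47 and 4.91 CPM, a log2 change of -1.64 (SE 0.17, adjusted p = 1.0e-05, edgeR). Neither pair of groups overlapped, and under metcamifen the same locus went from 104 ± 13.4 to 11.5 ± 1.54 CPM (SD, n = 3). LOC_Os04g37490 had 15.8, 16.9 and 22.2 CPM in DMSO at 30 min and 3.70, 8.86 and 9.31 CPM at 240 min (log2 change -1.34), and fell by 1.27 with cyprosulfamide (adjusted p = 0.00884). Of the 12 loci called lower in either treatment, 10 also had all metcamifen libraries at 240 min below all those at 30 min, as did 41 of the 75 and 11.5% of all tested loci.

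**Figure D5:**
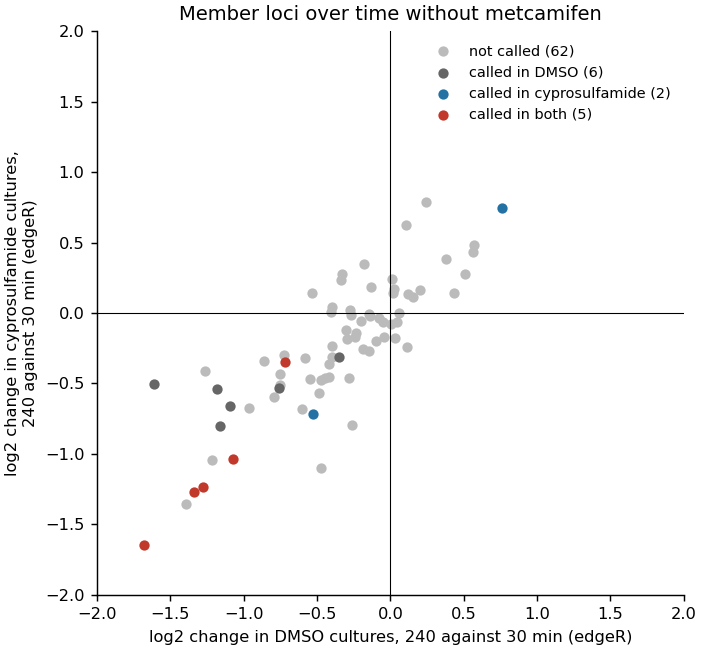
Log2 change from 30 to 240 min in DMSO cultures (horizontal axis) and in cyprosulfamide cultures (vertical axis) for the 75 loci, from edgeR. Colours mark loci with an adjusted p under 0.05 in DMSO, in cyprosulfamide or in both. The 5 called in both lie at the lower left. DMSO libraries entered the choice of the loci, so the DMSO calls are a description.

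A pair of loci rose from 30 to 90 min in cyprosulfamide cultures and were called higher in DMSO too. LOC_Os10g36580 had 9.71, 15.6 and 14 CPM in DMSO at 30 min, 44.1, 47.2 and 43.7 CPM at 90 min and 18.5, 28.9 and 19 CPM at 240 min. The change to 90 min was 1.77 on the log2 scale in DMSO (SE 0.20) and 1.18 with cyprosulfamide (SE 0.19, adjusted p = 0.00434, edgeR). Under metcamifen it had 60.7 ± 4.05, 157 ± 17.1 and 56.2 ± 8.36 CPM (SD, n = 3), so its level peaked at 90 min while its L of 2.17, 1.79 and 1.33 did not. LOC_Os10g37340 had 9.87, 14 and 22.2 CPM in DMSO at 30 min, 30.7, 40.3 and 45.7 CPM at 90 min and 12.6, 13.5 and 14 CPM at 240 min. It changed by 1.33 to 90 min in DMSO and by 1.43 with cyprosulfamide (adjusted p = 0.00186, edgeR). To 240 min it then changed by -1.53 in DMSO and by -1.49 with cyprosulfamide (adjusted p = 0.00171, edgeR). These p-values are from the fit without replicate number as a block. In both loci no library at 90 min overlapped those at 30 min in DMSO.

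From 30 to 90 min these were the 2 higher of 4 calls in DMSO (0.144% of all loci higher and 0.0982% lower, 0.242% in all) and the 2 calls with cyprosulfamide (0.136% rose and 0.0567% fell, 0.193% in all). The lower calls in DMSO were LOC_Os07g44140 (-0.80) and LOC_Os01g16146 (-0.63), which ended in 4 and 6 of 12 alternative settings. From 90 to 240 min, 3 loci fell with cyprosulfamide (0.404% of all loci fell and 0.136% rose, of 0.54% called) and 9 were called lower in DMSO (0.465% of all loci, of 0.71% called). LOC_Os02g56700 had the largest negative change in DMSO from 90 to 240 min, -1.66, and -1.61 from 30 to 240 min. With cyprosulfamide it had a log2 change of -0.50 from 30 to 240 min, and its DMSO calls ended in 5 of 12 alternative settings each. With cyprosulfamide, the call of LOC_Os10g36580 from 30 to 240 min (0.75, adjusted p = 0.0495, edgeR) ended in 5 of 12 settings, with adjusted p from 0.002 to 0.212.

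The size of these lists depended on the fit. Same-numbered DMSO libraries deviated together over time, and with the replicate number as a block the DMSO counts were 10, 14 and 21 for 90 against 30, 240 against 90 and 240 against 30 min (1.67%, 3.77% and 7.01% of all loci), the last with 19 lower against 4.14% of all loci. From 90 to 240 min with cyprosulfamide, where the numbers were also taken to pair the libraries, the block gave 6 (3.35% of all loci). Fitted to only the libraries compared, the DMSO counts were 1, 0 and 0 (0.0521%, 0.00399% and 0% of all loci) and the cyprosulfamide counts 0, 4 and 2 (0.0312%, 0.987% and 0.408%). Without the 7 libraries that stand apart they were 8, 9 and 16 in DMSO (0.358%, 1.49% and 5.05%) and 3, 5 and 7 with cyprosulfamide (0.542%, 2.61% and 2.61%). Counts also differed when single libraries were left out. The shares of all loci called in those fits were not taken. The counts below therefore cannot separate a change at the chosen loci from a change in calls over all loci. In DMSO the count from 30 to 240 min was 7 without DMSO_30min replicate 2 or 3, that from 90 to 240 min 4 without DMSO_90min replicate 1 or DMSO_240min replicate 3, and that from 30 to 90 min 2 without DMSO_30min replicate 3 or DMSO_90min replicate 1 or 2. With cyprosulfamide the count from 30 to 240 min was 3 without Cyprosulfamide_30min replicate 2 and 1, 4 and 2 without Cyprosulfamide_240min replicate 1, 2 and 3.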

How the data were processed

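The values are unnormalized whole-number counts from a single table deposited by the authors, and all 27 of its sample columns were matched to groups by the labels. GSNAP and edgeR are named, with no versions, in the submitters' processing notes. Genome build, annotation, strand and multiply matching reads were not given in the sources used here. CPM used the column sums. For tests, loci were filtered with filterByExpr (minimum count 10, minimum total count 15), scaled by TMM and fitted with 9 group means (18 residual degrees of freedom) in edgeR 4.0.16 under R 4.3.3, with DESeq2 1.42.0 as an alternative. Calls have a Benjamini-Hochberg adjusted p under 0.05 within each of 10 contrasts. Figures were drawn with Python 3.11.15 and matplotlib 3.10.9. The procedure was also run on simulated data in which each library was drawn independently. Deviations shared by same-numbered libraries were not simulated, so that run cannot show how the procedure handles them. Depth limits loci with few counts, and intervals cover the spread between replicates.

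The loci, lists and rules were chosen with earlier results of these data known. The metcamifen libraries and the DMSO libraries chose the loci, so metcamifen comparisons, and changes of the loci over time in DMSO, are described and print no p-value. DMSO calls over time were counted at an adjusted p under 0.05, but these counts are no independent test. The 21 gene lists planned by product name could not be built. The naming rule takes, for each quantity, the 2 highest and 2 lowest loci, the 2 largest called changes over time in each direction and the loci beside the threshold. Not every locus it takes is described above. The lowest L at 90 min was 1.73, at LOC_Os06g09220. At 240 min L was lowest at LOC_Os04g46970 and LOC_Os01g44050, 1.02 at each. The smallest range of L was 0.396, at LOC_Os07g09620.

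Pairing by replicate number was checked from correlations of deviations from each group's mean, at loci averaging above 3 on the log2 CPM scale. They were 0.35 to 0.82 for DMSO over time, so DMSO times were taken as paired, and 0.25 to 0.74 for metcamifen, whose times were also taken as paired but are described and not tested. For cyprosulfamide over time they were -0.079 to 0.55, and 90 with 240 min alone was taken as paired. Cyprosulfamide with DMSO (lowest 0.044) and metcamifen with DMSO (-0.84 to -0.29) were not paired. Alternatives covered scaling, pseudocount, filters, tool, samples in the fit and omitted libraries.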

Additional observations from a re-analysis of the deposited data

How the results depend on the processing

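The number of loci chosen was 74 with TMM scaling, 80 and 69 with pseudocounts of 0.25 and 1 CPM, 77 and 81 with a minimum of 1 CPM or none, and 76 with overlap allowed. Leaving out 1 library at a time gave 71 to 80 loci, and median L of 1.88 to 2.09 at 30 min, 3.00 to 3.12 at 90 min and 1.48 to 1.79 at 240 min. With pseudocounts of 0.25 and 1 CPM the median L was 1.96 and 1.78 at 30 min, 3.21 and 2.92 at 90 min and 1.76 and 1.53 at 240 min. The median cyprosulfamide change at 240 min was 0.19 with column sums in place of TMM. Without the 7 libraries that stand apart it was -0.19 at 30 min and 0.066 at 240 min, and with 1 library left out it ranged from -0.099 to 0.058, 0.029 to 0.14 and 0.051 to 0.20 at the 3 times. Cyprosulfamide calls were then 0 to 1 at 30 min, the 1 without Cyprosulfamide_30min replicate 3, and 0 at 90 and 240 min, against 7, 2 and 10 without the 7 libraries. Without 1 library the counts over time ranged in DMSO from 2 to 4 (90 against 30 min), 4 to 8 (240 against 90 min) and 7 to 10 (240 against 30 min), and with cyprosulfamide from 2 to 2, 2 to 3 and 1 to 9. Shares of all loci called were not taken for the fits with 1 library left out. Their ranges therefore cannot separate a change at the chosen loci from a change in calls over all loci. Without the 7 libraries, 8 were called in DMSO from 30 to 90 min and 5 with cyprosulfamide from 90 to 240 min. With the replicate number as a block the DMSO counts were 10, 14 and 21 (1.67%, 3.77% and 7.01% of all loci) and the cyprosulfamide counts 6, 6 and 15 (1.91%, 3.35% and 8.68%). For cyprosulfamide from 30 to 90 and from 30 to 240 min the samples share only a number. The block changed no other count of calls. A fit to the compared libraries alone gave 1, 0 and 0 in DMSO and 0 and 2 with cyprosulfamide from 30 min to 90 and 240 min. The cause of these differences was not tested. The log2 change of LOC_Os01g10210 under cyprosulfamide at 30 min was 0.97, and -0.073 without the 7 libraries (adjusted p = 0.953, edgeR). DESeq2 gave 6, 10 and 13 calls in DMSO (0.423%, 1.02% and 2.37% of all loci) and 2, 4 and 9 with cyprosulfamide (0.453%, 0.892% and 2.6%). Among other single-locus results under these alternatives, 1105 kept their call and direction or moved by less than the spread between replicates, 20 moved further, 32 lost their call and 3 gained one. Depth was lowest in Cyprosulfamide_240min replicate 1 (5516373 counts), which limits changes at loci of few counts.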
